A study of Homo sapiens with 6 samples.

Results

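The 44 genes described here encode the working parts of the lysosome. They comprise 23 soluble lysosomal proteins (proteases, glycosidases, lipid and thioester hydrolases, sphingolipid activators and progranulin), 5 proteins of the lysosomal membrane, 13 subunits of the proton pump V-ATPase, and the 3 transcription factors TFEB, TFE3 and MITF. The genes were listed by name for what their products are known to do, with earlier results of these data already known, and each of the 44 was found among the 40295 gene identifiers of the expression table. The samples were HDQ-P1 cells, an established human breast cancer cell line. The treated group consisted of 3 libraries from cells exposed for 48 h to Y-320 at 1 μM, a small molecule that the study examined as an enhancer of readthrough of premature stop codons. The other group consisted of 3 libraries from untreated cells, for which no solvent is mentioned. No aminoglycoside was given to either group. The comparison asks which transcripts of the lysosome differ in abundance after exposure to Y-320 alone.

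Lysosomes degrade macromolecules delivered by endocytosis and autophagy, and their hydrolases work best at acidic pH. The V-ATPase supplies this acidity: its cytosolic V1 sector hydrolyzes ATP and drives rotation of the membrane-embedded V0 sector, which moves protons into the lumen. TFEB, TFE3 and MITF belong to the MiT/TFE family, which activates many lysosomal genes by binding promoter sequences built around the letters CACGTG and known as CLEAR elements. The activity of these factors is regulated mainly by phosphorylation, by protein kinase mTORC1 among others, and by movement between cytoplasm and nucleus, which RNA levels do not measure.

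The libraries held 21045401 to 22740535 estimated counts each, and 1 count corresponded to 0.0440 to 0.0475 CPM, the unit that relates a count to its library's total. Levels are given as normalized CPM, with library sizes scaled by TMM, and differences as log2 fold changes of Y-320 over untreated libraries, and a log2 fold change of 0.5 or more is counted as large here. Adjusted p-values (Benjamini-Hochberg, over the 16580 genes tested) come from the quasi-likelihood test of edgeR and were called below 0.05. The labels do not say that the replicates were separate cultures, so these p-values measure only the spread between these libraries. As in any bulk sample, fewer cells of a kind and less RNA per cell cannot be told apart. Of 9 epithelial marker genes, all of which were detected, EPCAM was higher and 8 (keratins and CDH1) were lower with Y-320, and their summed level was 11706 to 12274 normalized CPM in untreated and 7156 to 7252 in Y-320 libraries. Of 10 fibroblast and leukocyte markers, MS4A1 was at 0 in every library. LUM, COL1A1 and PDGFRB were lower with Y-320, and the list summed to 106 to 118 normalized CPM without and 49.5 to 57.3 with the compound. The part of these marker differences in the results that follow was not tested.

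All 44 genes passed the filter on low counts and were tested. With Y-320, 15 of them were higher and 14 were lower at an adjusted p under 0.05, and 15 did not pass the test. The called share was 65.9% of the lysosomal genes against 51.5% of all genes tested (26.2% higher and 25.4% lower). Among the 12164 genes at least as abundant as CTSS, the least abundant lysosomal gene here, 61.2% were called, near the share of the lysosomal genes. This comparison sets a floor and does not match genes by abundance. The differences were small and went both ways. The median log2 fold change over the 44 genes was 0.036, against 0.00097 over all genes tested, and the median absolute log2 fold change was 0.144, against 0.213 over all genes and 0.183 over the genes at least as abundant as CTSS. A change of 0.5 log2 or more was seen for 3 of the 44 (6.82%), ATP6V0B upward and PPT1 and GM2A downward, while 15.7% of all genes tested moved that far (8.44% upward and 7.28% downward). Among the genes at least as abundant as CTSS, 13.5% did. The libraries of the 2 groups did not overlap for 33 of the 44 genes, with Y-320 higher for 19 and lower for 14, and for 59.2% of all genes tested (29.8% higher and 29.4% lower). Summed over the 44 genes, the level was 8147 ± 154 normalized CPM (SD, n = 3) in untreated and 8278 ± 24.6 (SD, n = 3) in Y-320 libraries, and the ranges of the groups overlapped. The lysosomal genes thus took 0.810% of the counts without and 0.831% with the compound.

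**Figure D1:**
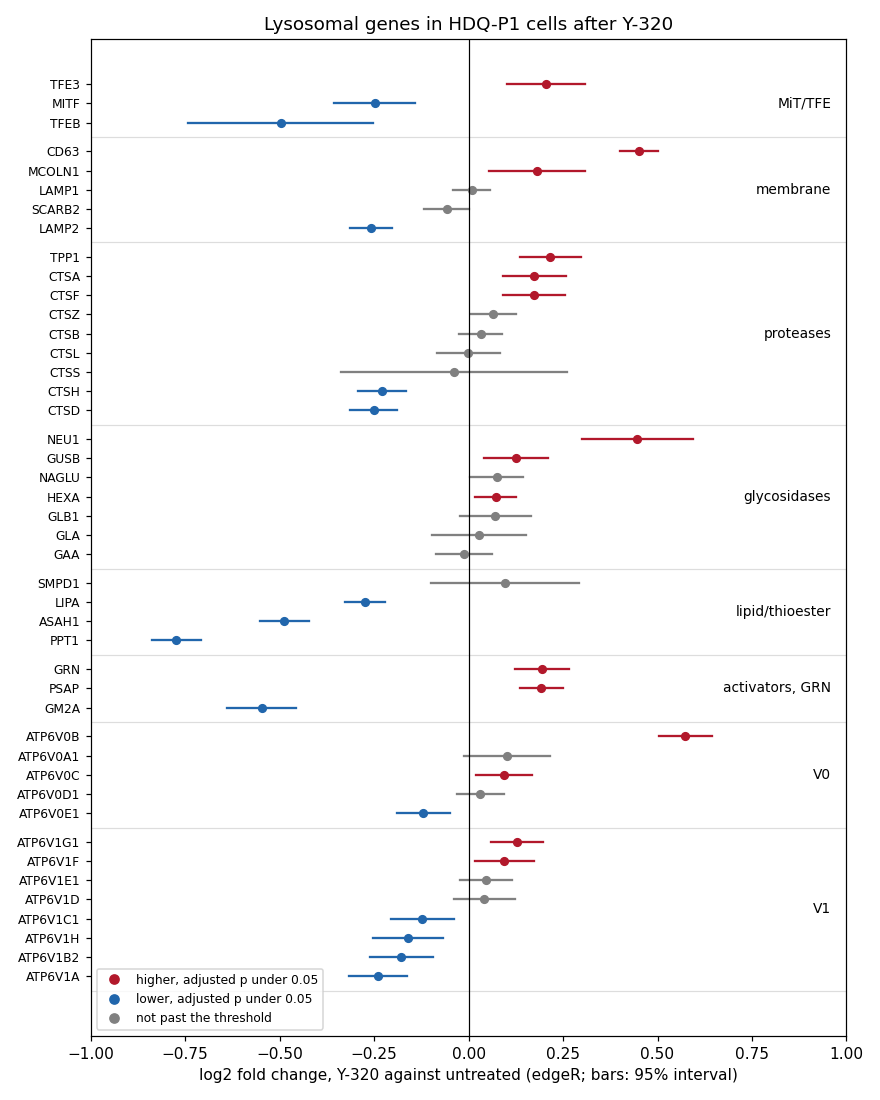
Log2 fold change of each of the 44 lysosomal genes (x axis, Y-320 against untreated, 3 libraries each), with 95% intervals from edgeR as bars, ordered by role along the y axis. Points in red (15 genes) were higher and points in blue (14 genes) lower at an adjusted p under 0.05, and most lie within 0.5 log2 of 0. ATP6V0B lies farthest to the right (0.57) and PPT1 farthest to the left (-0.77).

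The 3 MiT/TFE factors, which regulate lysosomal genes, each passed the test, in different directions. TFEB (chr6:41683978-41736259, minus strand, hg38) measured 10.7, 11.1 and 8.93 normalized CPM in the untreated libraries and 7.83, 7.51 and 6.41 in the Y-320 libraries. It fell from 10.2 ± 1.16 to 7.25 ± 0.747 normalized CPM (SD, n = 3; log2 fold change -0.50, SE 0.11, adjusted p = 0.00336), and the lowest untreated library still lay above the highest treated one. MITF (chr3:69739456-69968336, plus strand), best known as the regulator of pigment cells, measured 28.4, 29.4 and 27.6 normalized CPM without and 24.9, 23.9 and 23 with Y-320. Its decrease was smaller and the groups were likewise separate (log2 fold change -0.25, SE 0.048, adjusted p = 0.00147). TFE3 (chrX:49028726-49043410, minus strand) went the other way. Its level was 19, 19.1 and 18.8 normalized CPM in untreated and 21.7, 21.7 and 22.2 in Y-320 libraries, so the treated libraries were all higher (log2 fold change 0.20, SE 0.046, adjusted p = 0.00393). Per length of the canonical transcript, the levels in untreated cells were 5.76 normalized CPM per kb for TFE3, 5.93 for MITF and 4.39 for TFEB.

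Promoter sequence was examined because CLEAR elements contain a fixed core. The RefSeq promoters on GRCh38.p14, which run from 250 bases before to 50 bases after each start site, were available for 32 of the 44 genes and for 35116 genes in all. The 12 genes without an entry were LAMP2, CTSB, CTSS, HEXA, NAGLU, ASAH1, PSAP, ATP6V0E1, ATP6V1A, ATP6V1B2, ATP6V1C1 and ATP6V1H, of which 2 were higher with Y-320, 7 were lower and 3 did not pass the test. The core CACGTG reads the same on both strands, and it occurred in 7.26% of all promoters of this length. The shares over all promoters, here and below, include genes that were not tested. Of the tested genes with a promoter entry, 1421 held the core and 10040 did not, a larger share than over all promoters. The core was found in 11 of the 32 lysosomal promoters (34.4%), those of ATP6V0B, ATP6V0D1, ATP6V1G1, CD63, CTSA, CTSD, CTSF, GAA, LAMP1, MCOLN1 and NEU1. Among 98 further lysosomal genes, 71 had a promoter entry and 22 of these (31%) held the core, a share similar to that of the 44 genes. The longer TCACGTGA, which contains the core, occurred in 0.98% of all promoters and in 6 of the 32 (18.8%), beside 9 of the 71 (12.7%). The longest form searched, the core with GT before it and AC after it, which contains both shorter ones, occurred in 0.353% of all promoters and in 3 of the 32 (9.38%), those of ATP6V1G1, GAA and MCOLN1, beside 5 of the 71 (7.04%). Of the 11 genes with the core, 7 were higher, 1 (CTSD) was lower and 3 (ATP6V0D1, GAA and LAMP1) did not pass the test. Of the 21 genes without the core, 6 were higher, 6 were lower and 9 did not pass. The median log2 fold change was 0.17 with the core and 0.046 without. For TCACGTGA the medians were close, 0.080 with it and 0.068 without. Of the 6 genes with TCACGTGA, 3 were higher and 3 did not pass. Of the 26 without it, 10 were higher, 7 lower and 9 did not pass. Over all tested genes, 30.3% of the 1421 with the core were higher and 26.9% lower, and of the 10040 with a promoter entry but no core 27.5% were higher and 28% lower. These are counts of letters in the windows, the difference between genes with and without the core was not tested, and 7 of the 14 lower lysosomal genes do not enter them for want of an entry. The 6 windows of 30 bases that follow each hold 1 core and are written 5′ to 3′ on the strand of the gene with the core in capitals. The first 3 are from the genes with the core that had the largest increases, and the last 3 are from the genes with the longest form.
ATP6V0B, chr1:43974891-43974920, plus strand, core beginning 57 bases before the start site: ccggcgtggggtCACGTGgtaccggcgcat
CD63, chr12:55729172-55729201, minus strand, core beginning 180 bases before the start site: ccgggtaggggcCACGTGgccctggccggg
NEU1, chr6:31862930-31862959, minus strand, core beginning 126 bases before the start site: atgctgcgtgatCACGTGggaggagatgag
MCOLN1, chr19:7522598-7522627, plus strand, core beginning 14 bases before the start site: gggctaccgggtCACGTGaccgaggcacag
ATP6V1G1, chr9:114587699-114587728, plus strand, core beginning 58 bases before the start site: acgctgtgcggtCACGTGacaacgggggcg
GAA, chr17:80101493-80101522, plus strand, core beginning 76 bases before the start site: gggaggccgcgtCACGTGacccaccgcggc

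Among the lysosomal membrane proteins, 2 of 5 were higher, 1 was lower and 2 did not pass the test. CD63, a tetraspanin of late endosomes, lysosomes and exosomes (chr12:55725323-55729707, minus strand), showed the largest increase of the group. It measured 362, 373 and 369.8 normalized CPM in untreated and 499.8, 501 and 508 in Y-320 libraries, a wide gap relative to the spread within each group (log2 fold change 0.45, SE 0.022, adjusted p = 7.72e-08). MCOLN1, the calcium-releasing channel TRPML1, rose less, and its lowest treated library lay barely above its highest untreated one. Its values were 44.7, 40.8 and 41.3 normalized CPM without and 51.7, 44.7 and 47.3 with Y-320 (log2 fold change 0.18, SE 0.057, adjusted p = 0.0221). This call was lost when untreated replicate 2 (adjusted p = 0.0799), untreated replicate 3 (0.0762) or Y-320 replicate 1 (0.0738) was left out of the edgeR fit. LAMP1 and LAMP2 are the most abundant glycoproteins of the lysosomal membrane, and LAMP2 is also needed for chaperone-mediated autophagy. LAMP2 fell from 253 ± 2.65 to 211 ± 3.98 normalized CPM (SD, n = 3; log2 fold change -0.26, SE 0.025, adjusted p = 1.08e-05). LAMP1 was at 959.8 ± 22.5 and 965 ± 9.29 normalized CPM (SD, n = 3), and its 95% interval allowed a log2 difference of -0.04 to 0.06 (adjusted p = 0.804). For SCARB2, the receptor that carries glucocerebrosidase to lysosomes, the log2 fold change was -0.06 (adjusted p = 0.0892).

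Of the 9 proteases, 3 were higher, 2 were lower and 4 did not pass the test. TPP1, a tripeptidyl peptidase whose loss causes a form of neuronal ceroid lipofuscinosis, rose most. It measured 56.7, 60.2 and 60.2 normalized CPM in untreated and 69.5, 69.3 and 66.8 in Y-320 libraries (log2 fold change 0.22, SE 0.036, adjusted p = 5.65e-04). CTSA, the carboxypeptidase that protects beta-galactosidase and neuraminidase, and CTSF, a cysteine protease, rose by 0.17 log2 each (adjusted p = 0.00296 and 0.00278 by edgeR). The aspartic protease CTSD was the most abundant protease in counts and fell. Its levels were 769, 802 and 787 normalized CPM without and 683, 659 and 639 with Y-320, with no overlap (log2 fold change -0.25, SE 0.028, adjusted p = 2.92e-05). CTSH, an aminopeptidase of the cathepsin family, fell by a similar amount (log2 fold change -0.23, adjusted p = 6.73e-05). The other cysteine cathepsins did not pass. Their log2 fold changes were 0.07 (adjusted p = 0.0624) for CTSZ, 0.03 (adjusted p = 0.335) for CTSB and -0.04 (adjusted p = 0.836) for CTSS. CTSL had the smallest difference of all 44 genes, with 64.3 ± 2.22 normalized CPM in untreated and 64.2 ± 1.82 in Y-320 libraries (SD, n = 3) and a 95% interval of -0.08 to 0.08 log2. CTSS rests on few counts, so its interval was wide (-0.34 to 0.26 log2).

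The 7 glycosidases, which remove sugars from glycoproteins, glycolipids and glycosaminoglycans, included 3 that were higher, and the other 4 did not pass the test. NEU1, the lysosomal sialidase (chr6:31857659-31862905, minus strand), rose most in this group. Its row measured 9.20, 9.06 and 9.06 normalized CPM in untreated and 12.4, 12.6 and 12.2 in Y-320 libraries, and the groups were far apart (log2 fold change 0.45, SE 0.066, adjusted p = 2.39e-04). The table holds 3 further rows without a gene name whose counts equal those of NEU1 in every library, so the level of this row alone is not that of the transcript. Summed over all 4 rows, the level was 36.4 ± 0.309 normalized CPM without and 49.7 ± 0.897 with Y-320 (SD, n = 3). GUSB, the beta-glucuronidase, and HEXA, the alpha subunit of beta-hexosaminidase, were higher by smaller amounts. GUSB rose by 0.13 log2 (adjusted p = 0.019) and HEXA by 0.07 log2 (adjusted p = 0.0301) in the edgeR fit. The HEXA call was lost in the absence of any 1 of the 6 libraries (adjusted p = 0.0506 to 0.104), and the GUSB call without untreated replicate 1 (0.0748), untreated replicate 3 (0.0769) or Y-320 replicate 1 (0.0503). NAGLU, which degrades heparan sulfate, had a log2 fold change of 0.07 (adjusted p = 0.0738). GLB1, the beta-galactosidase, was at 0.07 (adjusted p = 0.194). GLA, the alpha-galactosidase A that is deficient in Fabry disease, had a log2 fold change of 0.03 (adjusted p = 0.715). GAA, the acid alpha-glucosidase that degrades glycogen, was at -0.01 (adjusted p = 0.788), the smallest difference of the glycosidases.

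The 4 lipid and thioester hydrolases included the largest decrease. PPT1 (chr1:40072710-40097260, minus strand), which removes palmitate from cysteine residues of proteins and is defective in infantile neuronal ceroid lipofuscinosis, had the largest change of the 44 genes. It measured 222, 229.9 and 230.2 normalized CPM in the untreated libraries and 137, 131 and 131 in the Y-320 libraries. The level fell from 228 ± 4.38 to 133 ± 3.42 normalized CPM (SD, n = 3), with groups clearly separate (log2 fold change -0.77, SE 0.029, adjusted p = 1.17e-08, 95% interval -0.84 to -0.71). ASAH1, the acid ceramidase, came just short of 0.5 log2. Its values were 113, 111 and 116 normalized CPM without and 81.7, 81.6 and 79.6 with Y-320 (log2 fold change -0.49, SE 0.029, adjusted p = 3.31e-07). LIPA, which hydrolyzes cholesteryl esters and triglycerides taken up in lipoproteins, fell from 297 ± 5.56 to 245 ± 1.03 normalized CPM (SD, n = 3; log2 fold change -0.27, SE 0.024, adjusted p = 5.29e-06). SMPD1, the acid sphingomyelinase, did not pass the test. It was at 11, 11.7 and 11.2 normalized CPM in untreated and 13.3, 10.7 and 12.1 in Y-320 libraries, which overlapped, and its 95% interval was -0.10 to 0.29 log2 (adjusted p = 0.39 by edgeR). In total 3 of these 4 genes were lower, beside 25.4% of all genes tested.

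The sphingolipid activators present lipids to the hydrolases, and the members measured here differed in direction. GM2A (chr5:151212150-151270440, plus strand), the activator with which beta-hexosaminidase degrades ganglioside GM2, was at 86.4, 89.3 and 81.2 normalized CPM in untreated and 58.5, 60.2 and 56.9 in Y-320 libraries. It fell from 85.6 ± 4.08 to 58.6 ± 1.66 normalized CPM (SD, n = 3; log2 fold change -0.55, SE 0.041, adjusted p = 1.66e-06). PSAP, the precursor of the 4 saposins, was the most abundant of the 44 genes in counts and rose from 1439 ± 45.1 to 1645 ± 34.3 normalized CPM (SD, n = 3; log2 fold change 0.19, SE 0.026, adjusted p = 1.21e-04). GRN encodes progranulin, a secreted and lysosomal glycoprotein that travels to lysosomes with prosaposin. GRN rose to a similar extent, from 503 ± 23.8 to 576 ± 6.53 normalized CPM (SD, n = 3; log2 fold change 0.20, SE 0.032, adjusted p = 5.11e-04). Over the 23 soluble proteins, 8 were higher, 6 lower and 9 not called. Their summed level was 5212 ± 125 normalized CPM in untreated and 5235 ± 26.1 in Y-320 libraries (SD, n = 3), with overlapping ranges.

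**Figure D2:**
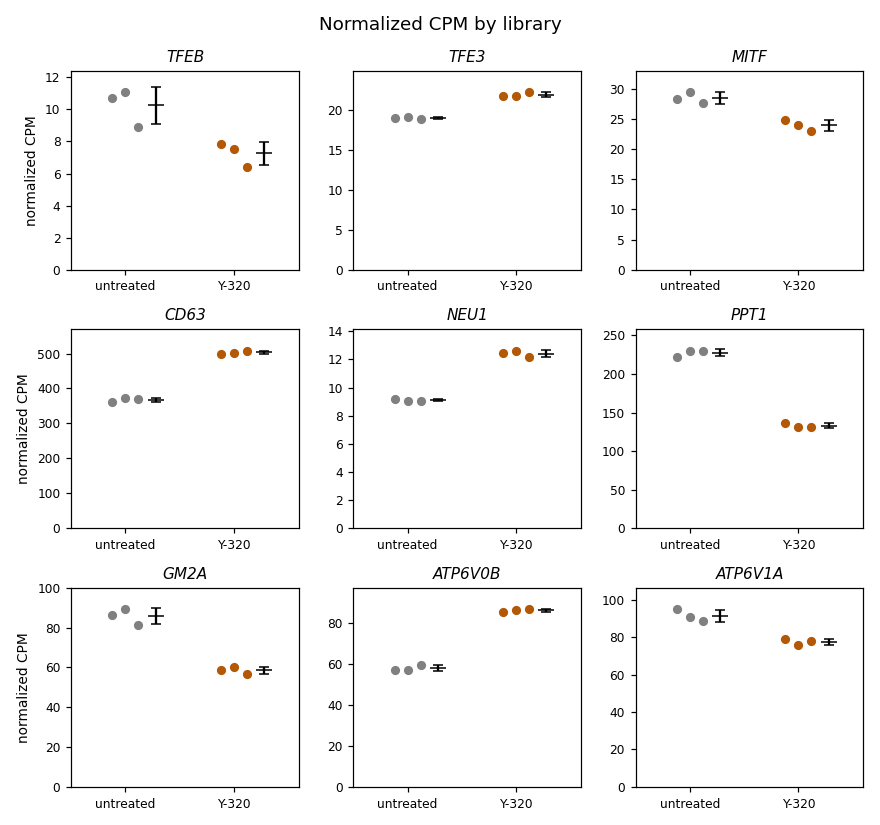
Normalized CPM (y axes, each from 0) of TFEB, TFE3, MITF, CD63, NEU1, PPT1, GM2A, ATP6V0B and ATP6V1A in every library, with untreated libraries in grey, Y-320 libraries in orange, and the mean ± SD of 3 beside them. In each panel the untreated and Y-320 points are separate. TFEB, MITF, PPT1, GM2A and ATP6V1A are lower and the other 4 genes higher with Y-320.

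The V-ATPase transcripts did not move as a unit. Of the 13 subunits, 4 were higher, 5 were lower and 4 did not pass the test, with a median log2 fold change of 0.041. The number of higher subunits was 2 without untreated replicate 1, untreated replicate 3, Y-320 replicate 1 or Y-320 replicate 2. ATP6V0B (chr1:43974487-43978295, plus strand), which encodes a proteolipid of the proton-carrying ring, stood apart from the other subunits. It measured 57, 56.9 and 59.4 normalized CPM in untreated and 85.3, 86.2 and 86.6 in Y-320 libraries. The level rose from 57.8 ± 1.44 to 86 ± 0.706 normalized CPM (SD, n = 3; log2 fold change 0.57, SE 0.031, adjusted p = 1.55e-07), and the treated libraries were all well above the untreated ones. ATP6V0C, the other ring proteolipid measured here, was higher by only 0.09 log2 (adjusted p = 0.0373 by edgeR). Of its 31-base words, 72.2% also occur in transcripts of other genes, so its count is uncertain. The small V0 subunit ATP6V0E1 fell (log2 fold change -0.12, adjusted p = 0.00848). The proton-channel subunit ATP6V0A1 was at 0.10 (adjusted p = 0.129) and the stalk-contacting subunit ATP6V0D1 at 0.03 (adjusted p = 0.381), and neither passed the test.

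In the V1 sector 2 of 8 subunits were higher, 4 were lower and 2 did not pass. ATP6V1A (chr3:113746770-113812056, plus strand), the catalytic subunit that binds ATP, fell most. Its levels were 95.1, 90.9 and 88.8 normalized CPM in untreated and 79.1, 75.6 and 77.9 in Y-320 libraries, with no overlap (log2 fold change -0.24, SE 0.035, adjusted p = 2.06e-04). Its partner in the ATP-hydrolyzing ring, ATP6V1B2, fell by 0.18 log2 (adjusted p = 0.00262 by edgeR). ATP6V1H and ATP6V1C1, a pair of subunits that sit between V1 and V0, had log2 fold changes of -0.16 (adjusted p = 0.00842) and -0.12 (adjusted p = 0.0193). The peripheral stalk subunit ATP6V1G1 rose by 0.13 log2 (adjusted p = 0.00512), and ATP6V1F, part of the central stalk, by 0.09 log2 (adjusted p = 0.0457) in the edgeR fit. The remaining stalk subunits ATP6V1E1 and ATP6V1D were at 0.05 (adjusted p = 0.237) and 0.04 (adjusted p = 0.374). Several of these calls were near the threshold. The call of ATP6V0C was lost without any 1 library other than Y-320 replicate 3 (adjusted p = 0.0712 to 0.118), and that of ATP6V1F without any 1 library other than untreated replicate 2 (0.0507 to 0.158). The call of ATP6V1C1 was lost without untreated replicate 1 or 2 or Y-320 replicate 1 or 2 (0.0547 to 0.0655). Summed over the 5 V0 subunits, the level was 435.6 ± 5.19 normalized CPM in untreated and 466.9 ± 4.43 in Y-320 libraries (SD, n = 3). Most of this difference came from ATP6V0B alone, which rose from 57.8 to 86 normalized CPM. The 8 V1 subunits summed to 607 ± 7.23 and 593 ± 5.76 (SD, n = 3), with ranges of 599 to 613 and 588 to 599 that overlapped.

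Levels of the subunits relative to each other were compared per kb of canonical transcript. In untreated cells ATP6V1F (128 ± 5.18 normalized CPM per kb) and ATP6V0C (107 ± 0.841) were the highest. ATP6V0E1 (89.2 ± 2.90) and ATP6V1E1 (87.9 ± 2.22) came next and did not differ beyond their spread (SD, n = 3 throughout). They were followed by ATP6V0B (58.5 ± 1.46), ATP6V0D1 (52.3 ± 0.630) and ATP6V1G1 (48.3 ± 1.07). ATP6V1D (29.5 ± 0.584) lay between these and the low group of ATP6V1A (20 ± 0.696), ATP6V1H (18.2 ± 0.650), ATP6V1C1 (17.7 ± 0.449) and ATP6V1B2 (17.5 ± 0.600), of which the last 3 did not differ beyond their spread. ATP6V0A1 was the lowest of the 13, at 11.8 ± 0.728. Its isoforms outside the 13 were at 45.7 ± 1.42 (TCIRG1), 4.01 ± 0.270 (ATP6V0A2) and 0.074 ± 0.032 (ATP6V0A4). With Y-320, ATP6V0B reached 87.2 ± 0.715 normalized CPM per kb, above ATP6V0E1 (82.1 ± 1.41) and close to ATP6V1E1 (90.8 ± 2.03). The low group moved down further, ATP6V1A to 16.9 ± 0.387 and ATP6V1B2 to 15.4 ± 0.230. The 4 V1 subunits that fell were thus the 4 with the lowest level per kb in V1. They also have the longest canonical transcripts in V1 (2120 to 5635 bases). Level per kb is divided by this length, so these traits are not independent. The canonical lengths of the V-ATPase subunits that were higher ran from 678 to 1563 bases (median 1040) and of those that were lower from 1419 to 5635 bases (median 2856). The Spearman correlation between length and log2 fold change was -0.64 across the 13 subunits, -0.32 across the 44 genes and -0.051 across 15323 genes tested with a length. These correlations are descriptions across genes measured in the same libraries, and the part of transcript length in the result was not tested.

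**Figure D3:**
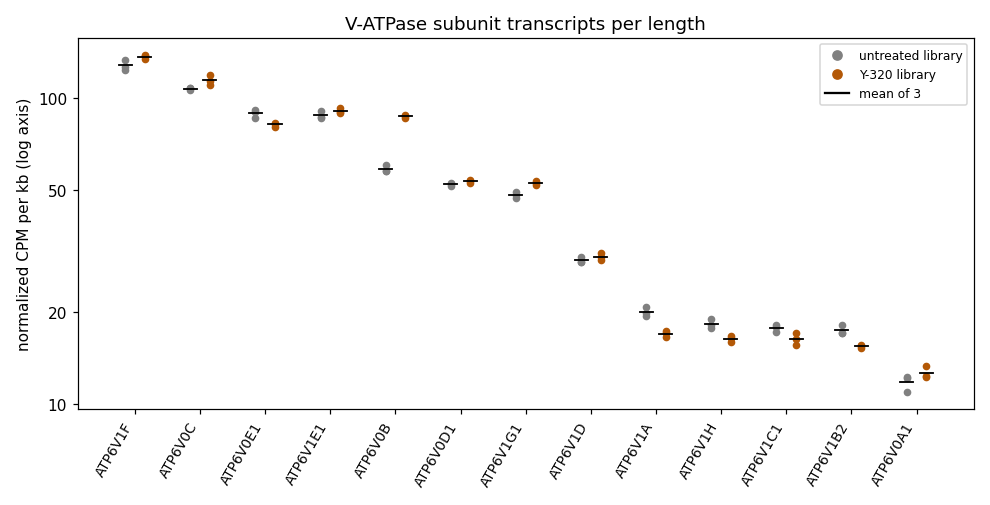
Normalized CPM per kb of canonical transcript (y axis, logarithmic) of the 13 V-ATPase subunits (x axis, ordered by untreated level) in the 3 untreated libraries (grey) and 3 Y-320 libraries (orange), with a line at each mean. ATP6V0B rises from 58.5 to 87.2, while ATP6V1A, ATP6V1H, ATP6V1C1 and ATP6V1B2 move down from between 17.5 and 20.

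Another 98 genes of the lysosome, listed by function, were examined for comparison. Of these 90 were tested, and 29 were higher, 31 lower and 30 not called. The called share was 66.7%, beside 51.5% of all genes tested, with a median log2 fold change of 0.013. A change of 0.5 log2 or more that passed the test was found for 13 genes (14.4%), close to the 15.7% over all genes tested. The other soluble hydrolases included 5 of 31 that were higher, 10 lower and 16 not called. FUCA1, a fucosidase, and IDS, a sulfatase that degrades glycosaminoglycans, rose by 0.41 and 0.38 log2, and the nuclease DNASE2 rose by 0.20 (adjusted p = 6.50e-06, 1.54e-06 and 0.00127 by edgeR). GALC, the galactosylceramidase, fell from 15.1 ± 1.04 to 9.88 ± 0.367 normalized CPM (SD, n = 3; log2 fold change -0.62, SE 0.074, adjusted p = 5.32e-05). CTSC, the dipeptidyl peptidase that activates serine proteases, fell too (log2 fold change -0.51, adjusted p = 7.21e-06).

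Larger differences were seen among other membrane proteins, with 6 of 23 higher, 8 lower and 9 not called. SLC17A5, the sialic acid exporter sialin (chr6:73593379-73653992, minus strand), measured 31.2, 28 and 30.6 normalized CPM in untreated and 74.8, 68.5 and 71.2 in Y-320 libraries. This was more than any increase among the 44 genes (log2 fold change 1.26, SE 0.049, adjusted p = 1.67e-08). NEU1 and SLC17A5, which release and export sialic acid, were both higher. LAMP3, a LAMP family member known from dendritic cells, was low and rose from 3.07 ± 0.520 to 6.22 ± 0.694 normalized CPM (SD, n = 3; log2 fold change 1.02, SE 0.15, adjusted p = 2.29e-04). The channel MCOLN3, a relative of MCOLN1, rose by 0.54 log2 (adjusted p = 4.09e-05 by edgeR). TMEM106B, a gene linked to frontotemporal dementia, LAPTM4B and the arginine sensor SLC38A9 had log2 fold changes of -0.56 (adjusted p = 4.44e-08), -0.51 (adjusted p = 4.04e-07) and -0.41 (adjusted p = 2.26e-05).

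Of 13 further V-ATPase genes, among them tissue-restricted isoforms, 10 were tested, and 4 were higher and 4 lower. ATP6V1B1 (chr2:70935900-70965431, plus strand), the B subunit isoform of kidney and inner ear, measured 11.4, 11.9 and 12 normalized CPM in untreated and 2.19, 1.83 and 2.26 in Y-320 libraries. The groups lay far apart (log2 fold change -2.48, SE 0.11, adjusted p = 2.98e-08), and the value stands beside the -0.18 log2 of the widely expressed isoform ATP6V1B2. ATP6V1C2, isoform of ATP6V1C1, was low and passed narrowly (log2 fold change -0.50, adjusted p = 0.0382). This call was lost by DESeq2 (adjusted p = 0.161), without a filter (0.0667), with a replicate block (0.0538) and without any 1 library other than Y-320 replicate 2 (0.0726 to 0.126), with log2 fold changes of -0.52 to -0.40 in these fits. TCIRG1, the a3 isoform known from osteoclasts, fell from 122 ± 3.78 to 102 ± 4.72 normalized CPM (SD, n = 3; log2 fold change -0.26, adjusted p = 2.51e-04). RNASEK, ATP6AP1 and ATP6AP2, accessory proteins of the pump, rose by 0.15, 0.14 and 0.14 log2 (adjusted p = 0.00174, 0.00284 and 0.00215 by edgeR).

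Genes for delivery of hydrolases and for control of the MiT/TFE factors moved both ways. Over all genes tested, 26.2% were higher and 25.4% lower. Of 7 genes for the mannose 6-phosphate tag and sorting receptors, 3 were higher and 3 lower. The receptors SORT1 and IGF2R and the phosphotransferase subunit GNPTG rose by 0.24, 0.16 and 0.24 log2 (adjusted p = 8.46e-05, 0.00382 and 0.0013 by edgeR). GNPTAB, which encodes the catalytic part of the same phosphotransferase, fell (log2 fold change -0.32, adjusted p = 9.03e-05). For SUMF1, which activates sulfatases, and the receptor M6PR the log2 fold changes were -0.17 (adjusted p = 0.00314) and -0.10 (adjusted p = 0.0047). Of 16 tested genes for nutrient sensing on the lysosome and MiT/TFE control, 8 were higher and 6 lower. RRAGD, a Rag GTPase that ties mTORC1 to MiT/TFE factors, had 65, 67 and 48 counts in untreated and 127, 123 and 106 in Y-320 libraries (log2 fold change 0.94, SE 0.16, adjusted p = 5.72e-04). FNIP2, partner of folliculin, and BORCS6, of a complex that positions lysosomes, were also higher, with log2 fold changes of 0.53 (adjusted p = 8.32e-05) and 0.40 (adjusted p = 0.0138). Without untreated replicate 3, BORCS6 did not pass (adjusted p = 0.0543). PPP3CA, the calcineurin catalytic subunit that can dephosphorylate TFEB, fell, as did RRAGB and the Ragulator subunit LAMTOR4. They had log2 fold changes of -0.46 (adjusted p = 9.46e-07), -0.43 (adjusted p = 0.00352) and -0.21 (adjusted p = 9.78e-04). Only 3 of 7 cystatins, inhibitors of cysteine cathepsins, were abundant enough to test. All 3 were higher, beside 26.2% of all genes tested, and 3 genes are few for such a share. CSTB, the cytosolic cystatin B, measured 196, 201 and 204 normalized CPM without and 311, 313 and 309 with Y-320 (log2 fold change 0.63, SE 0.024, adjusted p = 1.40e-08). The secreted cystatins CST6 and CST3 rose by 0.40 and 0.23 log2 (adjusted p = 8.59e-05 and 9.03e-05 by edgeR).

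**Figure D4:**
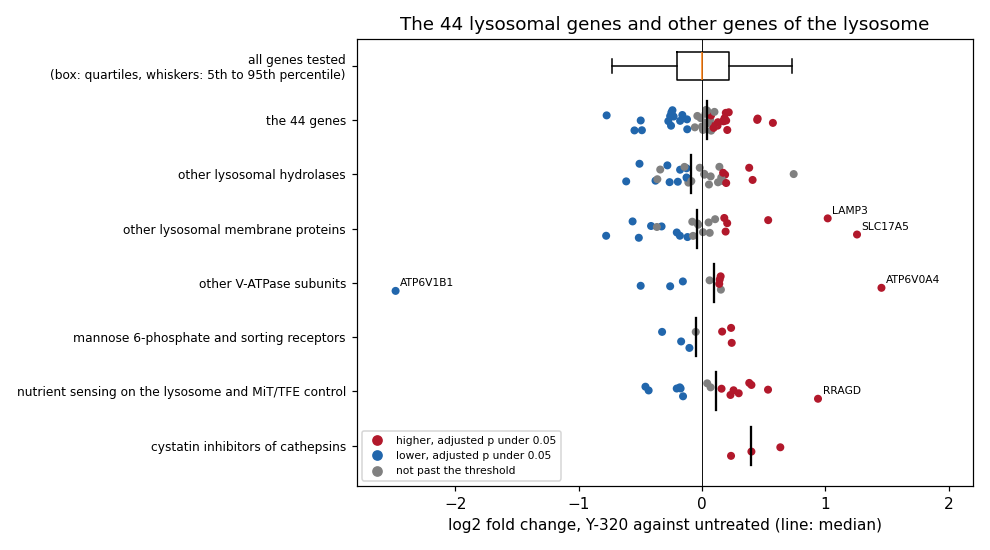
Log2 fold changes (x axis, Y-320 against untreated) of the 44 lysosomal genes and of 6 lists of other lysosomal genes (rows), with a vertical line at each list's median and, at the top, a box for all 16580 genes tested. The 44 genes lie between -0.77 and 0.57. SLC17A5 (1.26), LAMP3 (1.02), RRAGD (0.94), ATP6V1B1 (-2.48) and ATP6V0A4 (1.45) are labelled outside that range, where CSTB (0.63) also lies. LAPTM5 (-0.78) and ACP5 (0.74, not past the threshold) lie outside it without a label. ATP6V0A4, LAPTM5 and ACP5 averaged less than 1 normalized CPM and were named after their values were seen.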

How the data were processed

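RNA from 3 untreated and 3 Y-320-treated samples of HDQ-P1 cells had been sequenced on an Illumina NextSeq 500 after NeoPrep library preparation. The authors deposited 1 table of estimated counts per Ensembl gene, made with kallisto 0.46.1 against GRCh38 according to the submitters' processing notes. These values were not normalized, and 70.4% of those above 0 were not within 0.001 of a whole number, since kallisto divides reads that match several transcripts. The Ensembl release and the use of strand are not given in the sources used here, so reads of overlapping genes cannot be told apart. Depth was 21045401 to 22740535 counts per library.

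The deposited estimated counts were rounded to whole numbers for all tests. Identifiers were matched to gene names (35390 of 40295). edgeR 4.0.16 in R 4.3.3 removed genes with low counts (filterByExpr, at least 10 counts and a total of 15), applied TMM scaling and tested 16580 genes with its quasi-likelihood model, treatment being the only term, at a Benjamini-Hochberg adjusted p under 0.05. A different filter would test other rare genes, and a different scaling would move every fold change by one amount. DESeq2 1.42.0 and limma-voom (limma 3.58.1) were alternatives. Levels per kb used the canonical transcript of GENCODE 44 on hg38. Over 10% of the 31-base words recur in transcripts of other genes for 8 of the 44 genes (CTSA, CTSD, CTSS, CTSZ, GLA, GLB1, ATP6V0C and ATP6V1F), whose counts are less certain. NEU1 fell below this share (6.29%), but its counts equal those of 3 rows without a gene name, so its count is less certain too. Promoters came from RefSeq on GRCh38.p14. Tables and plots were made with Python 3.11.15, pandas 2.3.3 and matplotlib 3.10.9.

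The 44 genes, the other lists and the markers were chosen with earlier results of these data known. Among the 44 genes, values in every library are given for those that passed the test with at least 0.5 log2, for the MiT/TFE factors and for the largest differences of each role, and were added for some others (such as MCOLN1 and SMPD1) after their values were seen. Of each other list, the 3 highest and 3 lowest log2 fold changes past the threshold with a mean of at least 1 CPM are named. Not every gene so selected is reported here, but all enter the list counts.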

Additional observations from a re-analysis of the deposited data

How the results depend on the processing

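The 15 increases and 14 decreases among the 44 lysosomal genes were recomputed without a filter and with at least 10 counts in every library, by DESeq2 and limma-voom, with total count, DESeq2 size factor or upper quartile scaling, without rounding, at an adjusted p under 0.01, with a replicate block and without each library. Increases numbered 10 to 17 (10 to 14 with 1 library left out) and decreases 13 to 15. Of the 29 called genes, 23 were called in every edgeR, DESeq2 and limma-voom alternative at the threshold of 0.05 and none reversed. MCOLN1, GUSB, HEXA, ATP6V0C, ATP6V1C1 and ATP6V1F lost the call in at least 1. Upper quartile scaling gave 5 genes with at least 0.5 log2 instead of 3, 2 higher V-ATPase subunits instead of 4, and a median over the 44 genes of 0.0078 instead of 0.036. The higher V-ATPase subunits were also 2 at an adjusted p under 0.01, and 2 to 3 with 1 library left out. They were 2 without the genes with over 10% of their 31-base words in other genes (an alternative chosen after seeing the data). They were 2 without untreated replicate 1 or 3 or Y-320 replicate 1 or 2. The median ranged from 0.031 to 0.056 with 1 library left out, highest without Y-320 replicate 2. Genes that did not pass the test and changed sign were LAMP1 (-0.021 with upper quartile scaling), CTSL (0.0039 without a filter, 0.00012 by DESeq2 and 0.013 with total count scaling), GAA (0.0010 with total count scaling) and GLA (-0.0011 with upper quartile scaling). With 1 library left out, LAMP1 ranged from -0.013 to 0.018, CTSL from -0.029 to 0.022, CTSS from -0.13 to 0.066, GAA from -0.046 to 0.013 and GLA from -0.023 to 0.082. Of the 33 other lysosomal genes that the naming rule selects, 31 kept their call throughout, and ATP6V1C2 and BORCS6 did not. Increases among the other lysosomal genes numbered 24 to 31 and decreases 23 to 34. The replicate block gave the same 15 increases and 14 decreases and took the call only from ATP6V1C2 among the genes selected. Same-numbered libraries did not deviate together (correlations -0.014, 0.011 and -0.00036 across genes). The labels state no pairing, and correlations across all genes tested, rare ones included, cannot exclude one. CTSS and TFEB, among the least abundant of the 44 genes, had the widest intervals.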
